A study of Mus musculus with 54 samples.

Results

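The comparison described here set naive CD4+ T cells lacking both CD5 and CD6 (Cd5-/-Cd6-/-, 3 samples) against wild-type cells (WT, 3 samples), each 20 h after stimulation through the T cell receptor. These 6 samples were chosen by genotype and time from 54 samples in the series, 36 of which form the experiment on CD5 and CD6 knockouts. That experiment measured messenger RNA by poly(A)-selected, stranded RNA sequencing in WT, Cd5-/-, Cd6-/- and Cd5-/-Cd6-/- cells, unstimulated or stimulated for 4 h or 20 h. All groups were of the C57BL/6 background. Naive CD4+ T cells were isolated with a magnetic kit from pooled lymph nodes and spleens and were cultured with plate-bound anti-CD3 at 3 µg/ml and soluble anti-CD28 at 1 µg/ml. The study describes the samples of each condition as independent. The p-values of the main fit measure the spread between samples of a group, estimated over all 36 libraries. Those from fits with a block for replicate number measure the spread left after shifts shared by a number. The Cd5-/-Cd6-/- mice are a single line, established from 1 CRISPR/Cas9-made germline deletion. An effect of the genotype and a trait of the line therefore cannot be told apart.

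CD5 and CD6 are surface receptors of the scavenger receptor cysteine-rich (SRCR) family. The genes lie next to each other and encode transmembrane proteins whose cytoplasmic tails are phosphorylated on tyrosine when the T cell receptor is engaged. Between them the tails then recruit adaptors, kinases, phosphatases and ubiquitin ligases, and in the study the partners of CD5 differed from those of CD6. CD5 is best known as an inhibitor of T cell receptor signaling whose surface level follows the strength of self-recognition in the thymus, and CD6 binds CD166 (encoded by Alcam) on other cells.

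The deletion was made with a pair of guides, shown because they mark where the deletion was aimed. By the study's methods, the sequenced deletion of the line runs further into Cd5 than the predicted CD5-1 cut site, so the shares below, counted between the predicted cuts, are approximate for the line. Both are given 5′ to 3′, with the PAM in capitals.
CD5-1: cagcacttcgtgggagtccaTGG
CD6-1: ggagacggttgtgccaccgaTGG
On chromosome 19 of GRCm38 the CD5-1 protospacer lies at chr19:10738826-10738845 on the plus strand, in exon 1 of Cd5, where its last bases overlap the start codon. The CD6-1 protospacer lies at chr19:10829917-10829936 on the plus strand, by the annotation in the 5′ UTR within exon 1 of Cd6. Its cut site is 77 bases before the start codon. For the Cd5-/-Cd6-/- mice the study's methods place this guide in the intron after exon 1. For the Cd6-/- mice they place the same sequence in the 5′ UTR. The cut sites are 91091 bases apart. Cd5 is transcribed from the minus strand (chr19:10717116-10739002) and 3.25% of its exonic bases lie between the predicted cuts, all in exon 1. Cd6 (minus strand, chr19:10789341-10830058) has 98.4% of its exonic bases between the cuts. A430093F15Rik (plus strand, chr19:10740947-10786043), a transcript without an established function, lies between Cd5 and Cd6 and has all 3119 of its exonic bases there.

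Reads of all 3 genes were nearly absent in Cd5-/-Cd6-/- cells. Cd5 had 35635, 34095 and 29945 reads in WT replicates 1 to 3 and 8, 20 and 18 reads in Cd5-/-Cd6-/- replicates 1 to 3. Cd6 had 33236, 30696 and 27424 reads in WT and 16, 15 and 15 in Cd5-/-Cd6-/-. A430093F15Rik had 2436, 2230 and 2624 reads in WT and 0, 1 and 0 in Cd5-/-Cd6-/-. The groups were far apart for each gene, and each Cd5-/-Cd6-/- library matched its label. Scaled for library size, what was left of the WT level was 0.043% for Cd5 (95% interval 0.0315 to 0.0574), 0.047% for Cd6 (0.0344 to 0.0627) and 0.0128% for A430093F15Rik (0.000324 to 0.0713), intervals that cover counting error only. Cd5 was as low as Cd6. Nearly all exonic sequence of Cd5 lies outside the predicted cuts, but its annotated transcript start and its start codon lie within the sequenced deletion. In WT cells both were among the well expressed genes, at 1134 ± 126 CPM (read counts scaled to a common library size) for Cd5 and 1037 ± 97.5 CPM for Cd6 (mean ± SD, n = 3).

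Outside the deleted genes few genes passed the test. A gene was called where it changed more than 2-fold with an adjusted p under 0.05. The test was edgeR's quasi-likelihood test, adjusted by the Benjamini-Hochberg method and fitted on all 36 libraries of the experiment. Of 32290 genes tested, 6 were called (0.0186%), 1 higher and 5 lower in Cd5-/-Cd6-/- cells. They were A430093F15Rik, Cd6, Cd5, Tmem132a, Xdh and Zfp467. The adjusted p of the deleted genes was 2.1e-25 for A430093F15Rik, 9.5e-19 for Cd6 and 2.3e-15 for Cd5. At an unadjusted p under 0.05, 229 genes were higher (0.709%) and 445 lower (1.38%). The median log2 fold change over the 13738 genes that averaged 10 or more counts was -0.00.

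The libraries were close to each other in depth. WT libraries held 26377366 to 35423286 counted reads and Cd5-/-Cd6-/- libraries 27307849 to 34480997, so that 3 reads, the least taken here as detected, equal 0.0847 to 0.114 CPM. Mitochondrial transcripts took 0.488 to 0.959% of WT and 0.379 to 1.01% of Cd5-/-Cd6-/- reads, highest in replicate 1 of both groups. An unstimulated library labelled Cd5-/- and another labelled Cd6-/- (replicate 2 of each) each had the Cd5 and Cd6 levels of the other label. Neither is in this comparison except through the shared estimate of spread, and the count of calls was also 6 without them.

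Xdh was the only called gene that rose. It encodes xanthine dehydrogenase, which oxidises hypoxanthine and xanthine to uric acid at the end of purine breakdown. Xdh was at 1.80, 2.54 and 2.70 CPM in WT and at 3.91, 7.24 and 7.58 CPM in Cd5-/-Cd6-/- cells. The groups did not overlap, and replicate 1 was the lowest of each. The log2 fold change was 1.42 ± 0.27 (SE; adjusted p = 0.0351). Of 15 enzymes of purine catabolism and salvage, Xdh was the only one with an unadjusted p under 0.05, and the median log2 fold change of the list was 0.02.

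Zfp467, which encodes a zinc finger transcription factor, fell. It was at 5.30, 4.17 and 4.95 CPM in WT and at 1.78, 1.23 and 2.50 CPM in Cd5-/-Cd6-/- cells, again without overlap. The log2 fold change was -1.41 ± 0.27 (adjusted p = 0.0423). Both genes were low in these cells and close to the threshold. Without replicates 1, 2 or 3 of both groups the adjusted p was 0.0702, 1 and 0.389 for Xdh and 0.337, 1 and 0.0534 for Zfp467, with log2 fold changes of 1.37 to 1.50 and of -1.66 to -1.25.

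**Figure D1:**
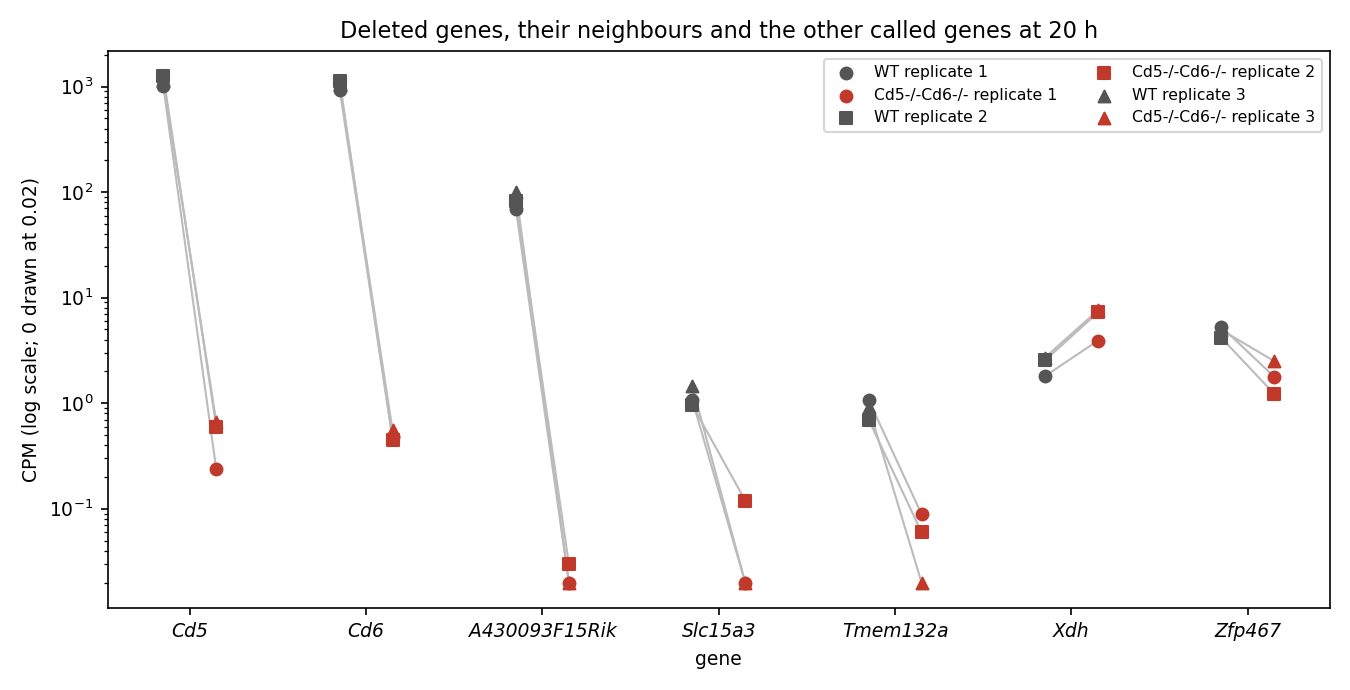
CPM on a log axis of the 6 called genes and Slc15a3 in the 6 libraries at 20 h (grey WT, red Cd5-/-Cd6-/-, marker shape by replicate number, lines joining equal numbers, values of 0 drawn at 0.02). The 3 deleted genes drop from between 68.7 and 1257 CPM to under 1 CPM, Slc15a3 and Tmem132a go from about 1 CPM to near 0, and the shifts of Xdh and Zfp467 are smaller.

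The genes next to the deletion on the Cd6 side were also low. Tmem132a, which encodes a single-pass membrane protein, has its nearer annotated end, the 3′ end, 27.9 kb beyond the CD6-1 cut site (minus strand, chr19:10857822-10869940). It had 38, 19 and 24 reads in WT and 3, 2 and 0 in Cd5-/-Cd6-/- cells, with no overlap between the groups. It fell to 5.76% of the WT level (95% interval 1.82 to 14.0), with a log2 fold change of -4.00 ± 0.61 (adjusted p = 0.00049). Leaving out replicate 1 or replicate 2 of both groups raised the adjusted p to 0.214 and 0.128.

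Slc15a3, which encodes a lysosomal proton-coupled transporter of histidine and peptides, starts 9.79 kb beyond the same cut site (plus strand, chr19:10839727-10859362). It had 38, 26 and 38 reads in WT and 0, 4 and 0 in Cd5-/-Cd6-/- cells, 3.66% of the WT level (0.978 to 9.66). Its log2 fold change was -4.64 ± 1.13 and it did not pass the test (adjusted p = 0.402). It passed with a block for replicate number over the 6 libraries (adjusted p = 0.00528) and with DESeq2 (0.000646). The annotated ends of Slc15a3 and Tmem132a overlap on opposite strands, and the strand setting of the read counting is not given in the sources used here, so reads in the shared stretch cannot be assigned to either gene with certainty. The other 3 tested transporters of that family had an unadjusted p over 0.05.

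The other neighbours showed no such drop. Vps37c, the nearest tested gene on the Cd5 side at 24.2 kb, which encodes a subunit of the ESCRT-I sorting complex, was at 13.6, 13.5 and 12.2 CPM in WT and 13.5, 14.6 and 11.2 CPM in Cd5-/-Cd6-/- cells (log2 fold change 0.00 ± 0.15). Within 1 Mb of the cuts and outside them, 36 genes averaged 10 or more counts in the 6 libraries. Without Slc15a3 and Tmem132a, the log2 fold changes of the other 34 ran from -0.54 to 0.62 with a median of -0.02. Tmem109 (-0.27) and Ms4a4b (-0.53), the latter a membrane protein of T cells, passed only with the block over the 6 libraries (adjusted p = 0.0246 and 0.00102).

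**Figure D2:**
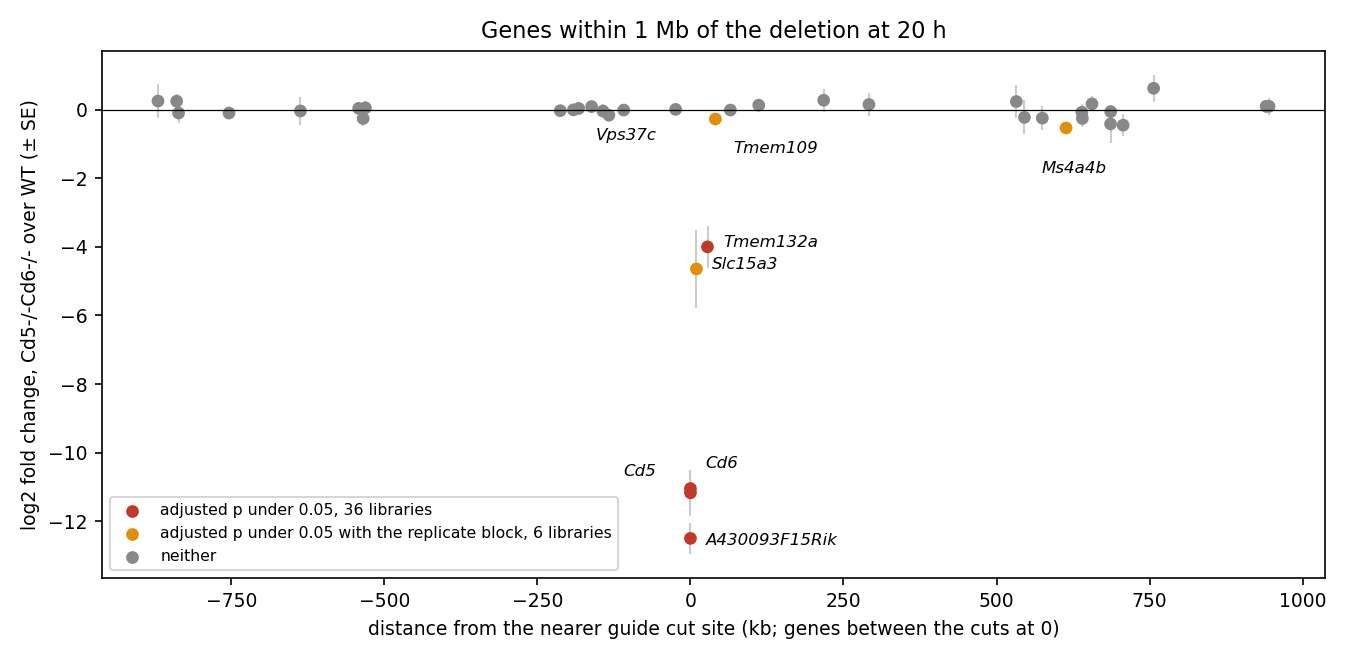
Log2 fold change (± SE) of genes within 1 Mb of the deletion against distance from the nearer cut site in kb, negative on the Cd5 side and positive on the Cd6 side, with the genes between the cuts at 0. Slc15a3 and Tmem132a, at 9.79 and 27.9 kb, are the only genes outside the cuts below -1, while Vps37c at 24.2 kb on the other side lies at 0.00.

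Libraries with the same replicate number deviated together, and a block for the number made the spread smaller. With the block in the fit of 36 libraries, 9 genes were called (0.0279%), which added Tmem35a, Ramp1 and Ptpn5. Ramp1, which encodes a partner subunit of the calcitonin gene-related peptide receptor, was at 11.5, 8.55 and 12.7 CPM in WT and 5.01, 4.51 and 5.85 CPM in Cd5-/-Cd6-/- cells. Its groups did not overlap (blocked log2 fold change -1.08, adjusted p = 0.0322). Tmem35a, which encodes a chaperone of acetylcholine receptors, was at 1.38, 1.88 and 5.10 CPM in WT and 4.06, 9.75 and 13.0 CPM in Cd5-/-Cd6-/-. Ptpn5, a tyrosine phosphatase of MAP kinases, was at 1.01, 1.14 and 1.56 CPM in WT and 1.36, 4.45 and 6.00 CPM in Cd5-/-Cd6-/-. The WT and Cd5-/-Cd6-/- values of both genes overlapped, with each Cd5-/-Cd6-/- value above the WT value of its own number (blocked log2 fold changes 1.68 and 1.57, adjusted p = 0.0322 for each).

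Fitting the 6 libraries alone with the same block called 41 of 23861 genes (0.172%), 24 higher and 17 lower. Without the limit on fold change 276 genes had an adjusted p under 0.05, 95 higher (0.398%) and 181 lower (0.759%), with a median absolute log2 fold change of 0.48. All 276 moved the same way in the 3 pairs, 135 had groups that did not overlap, and 169 had an unadjusted p under 0.05 in the fit of 36 libraries. The 276 were chosen by a test on these same pairs, so these counts are no independent support. Among all genes averaging 10 or more counts, the groups did not overlap for 3.28% that were higher and 4.7% that were lower. The 41 became 24, 3 and 5 without pair 1, 2 and 3, so this count rested on single pairs. Genes that passed only in this fit are called higher or lower in the blocked fit below, and the p-values given with them are from it.

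The gene lists below cover what CD5 and CD6 bind and the pathways that T cell receptor stimulation turns on. The background for their counts is the set of genes averaging 10 or more counts. Of these, 0.895% were higher and 2.34% lower at an unadjusted p under 0.05 in the fit of 36 libraries, and 9.3% and 8.97% in the blocked fit of 6 libraries, where 0.697% and 1.33% had an adjusted p under 0.05. The 3 Cd5-/-Cd6-/- libraries were all above the 3 WT libraries for 3.28% of them and all below for 4.7%.

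Other SRCR genes and CD6 ligands gave no call. Of 15 tested, Cd5 and Cd6 alone had an unadjusted p under 0.05 in the fit of 36 libraries, and Marco, Msr1, Dmbt1 and Scara5 had no read in any of the 6 libraries. Alcam, the gene for the CD6 ligand CD166, was at 30.5, 35.3 and 26.8 CPM in WT and 38.3, 49.2 and 31.0 CPM in Cd5-/-Cd6-/- cells. The groups overlapped, and Alcam was higher in the blocked fit (log2 fold change 0.36 ± 0.07, adjusted p = 0.0456).

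Of 20 genes listed for the CD5 and CD6 signalosomes, none was called, 2 were lower in the blocked fit and the median log2 fold change was -0.05. Grap2, which encodes the adaptor GADS that holds SLP-76 at LAT, was at 162, 118 and 98.0 CPM in WT and 107, 83.2 and 58.0 CPM in Cd5-/-Cd6-/- cells (log2 fold change -0.60 ± 0.06, adjusted p = 0.00213). Themis encodes a T-lineage adaptor that binds GRB2 and that the study's text names as a partner of LAT, not of CD5 or CD6. Themis was at 58.1, 48.1 and 40.9 CPM in WT and 38.6, 34.4 and 27.5 CPM in Cd5-/-Cd6-/- cells (-0.54 ± 0.06, adjusted p = 0.00298). The groups overlapped for Grap2 and not for Themis. Ubash3a, Lcp2 and Vav1, whose proteins the study found with CD6, differed little. Ubash3a, encoding the phosphatase-like protein STS-2, had a log2 fold change of -0.05 ± 0.15, Lcp2 (SLP-76) 0.04 ± 0.11 and Vav1 0.03 ± 0.12. Cblb, a ubiquitin ligase that CD5 binds, was at 186, 190.1 and 165 CPM in WT and 199.8, 262 and 193 CPM in Cd5-/-Cd6-/- cells (0.28 ± 0.14, unadjusted p = 0.0566), where the groups did not overlap.

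The T cell receptor complex itself gave no call among 16 genes, in either fit, with log2 fold changes from -0.19 to 0.21 and a median of 0.00. Cd3e was at 221, 219 and 229.6 CPM in WT and 233, 233 and 204 CPM in Cd5-/-Cd6-/-. Zap70, the kinase that docks on the phosphorylated receptor chains, differed by 0.01 ± 0.11 and Lck by -0.11 ± 0.12.

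Of 30 negative regulators of T cell receptor signaling, none was called and the median was -0.03. In the blocked fit Ptpn22 and Sla were higher and Tnfaip3 lower. Ptpn22, a phosphatase that acts on Lck and ZAP-70, was at 76.6, 95.8 and 85.1 CPM in WT and 92.0, 121 and 105 CPM in Cd5-/-Cd6-/- cells (log2 fold change 0.31 ± 0.05, adjusted p = 0.0173). Sla, an adaptor that lowers surface receptor, was at 349.6, 387 and 395 CPM in WT and 447, 440.2 and 446 CPM in Cd5-/-Cd6-/-, without overlap (0.25 ± 0.05, adjusted p = 0.0432). Tnfaip3, which encodes the NF-κB inhibitor A20, differed by -0.37 ± 0.06 (adjusted p = 0.0151).

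Immediate early genes, which follow the strength of receptor signaling, had no call among 22 tested, and 4 were lower and 0 higher in the blocked fit. The median was -0.09, and 16 of the 22 were lower in Cd5-/-Cd6-/- cells. Egr3, a transcription factor that restrains T cell activation, was at 293, 240.0 and 200.0 CPM in WT and 183, 154 and 133 CPM in Cd5-/-Cd6-/- cells. The groups did not overlap and the ratio was nearly the same in each pair (0.625, 0.640 and 0.664), with a log2 fold change of -0.63 ± 0.04 (adjusted p = 0.000335). Nr4a1, the gene for the orphan receptor NUR77 that reports receptor signaling, was at 370.3, 369 and 327 CPM in WT and 206, 282 and 266 CPM in Cd5-/-Cd6-/- cells, without overlap (-0.50 ± 0.08, adjusted p = 0.0187). Egr1 (-0.30) and Rel (-0.32) made up the 4, while Nr4a3 differed by -0.19 ± 0.19 and Myc by -0.03 ± 0.15 in the fit of 36 libraries.

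Among 15 surface markers of activation and homing none was called. In the blocked fit 3 were lower, all of them homing receptors. Ccr7, the chemokine receptor for entry into lymph nodes, was at 979, 933 and 1163 CPM in WT and 673, 729 and 849.5 CPM in Cd5-/-Cd6-/- cells, without overlap (log2 fold change -0.44 ± 0.04, adjusted p = 0.00141). Itgb7 (-0.43, adjusted p = 0.00352) and Itga4 (-0.52, adjusted p = 0.0107) encode the chains of the gut-homing integrin. The activation markers Cd69 (-0.03 ± 0.39), Cd44 (0.29 ± 0.28) and Tfrc (0.08 ± 0.18) did not pass. Lsp1, an actin-binding protein of leukocytes that is in no list, was at 641, 658 and 582 CPM in WT and 409, 426 and 418 CPM in Cd5-/-Cd6-/- cells (-0.58 ± 0.04, adjusted p = 0.000421).

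Of 24 costimulatory and checkpoint genes, none was called, 2 were higher in the blocked fit and the median was 0.02. Tigit, an inhibitory receptor, was at 9.58, 13.5 and 12.2 CPM in WT and 17.8, 31.9 and 26.5 CPM in Cd5-/-Cd6-/- cells, 1.86, 2.37 and 2.18 times the WT value of the same number (log2 fold change 1.10 ± 0.09, adjusted p = 0.000751). Lag3, an inhibitory receptor for MHC class II, was at 104, 87.1 and 107 CPM in WT and 136, 144 and 148 CPM in Cd5-/-Cd6-/- cells (0.53 ± 0.06, adjusted p = 0.00427). For both genes the groups did not overlap. Pdcd1 (0.13 ± 0.28) and Ctla4 (-0.30 ± 0.36) did not pass.

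Cytokine and chemokine genes were spread widely. None of 30 was called, and in the blocked fit 5 were higher and 1 lower. The median log2 fold change was 0.43, but it was -0.08 in pair 1 against 0.34 and 0.41 in pairs 2 and 3. Ifng was at 0.958, 4.05 and 5.33 CPM in WT and 2.02, 28.9 and 15.6 CPM in Cd5-/-Cd6-/- cells. The groups overlapped because replicate 1 was low in both, while each Cd5-/-Cd6-/- value exceeded its own WT value (log2 fold change 2.13 ± 0.23, adjusted p = 0.00239). Il13 was at 0.366, 0.479 and 0.647 CPM in WT and 0.385, 2.36 and 2.76 CPM in Cd5-/-Cd6-/- cells, so that pair 1 differed little (1.81 ± 0.33, adjusted p = 0.0339). The chemokine Ccl3 was at 30.0, 81.4 and 48.6 CPM in WT and 41.3, 149.8 and 95.2 CPM in Cd5-/-Cd6-/- (0.80 ± 0.08, adjusted p = 0.00213). Ccl4 (0.34) and Xcl1 (0.41) were also higher and Ltb (-0.34) lower. Il2, the growth factor of activated T cells, did not pass in either fit, at 104, 215 and 176 CPM in WT and 81.0, 239 and 286 CPM in Cd5-/-Cd6-/-.

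Gzmb and Tbx21, genes of effector cells, were higher in the blocked fit. Gzmb, the cytotoxic protease granzyme B, was at 16.3, 23.4 and 39.2 CPM in WT and 26.4, 106 and 77.1 CPM in Cd5-/-Cd6-/- cells (log2 fold change 1.33 ± 0.21, adjusted p = 0.0155). Tbx21, which encodes the Th1 factor T-bet, was at 43.7, 88.1 and 151 CPM in WT and 81.3, 209.7 and 194 CPM in Cd5-/-Cd6-/- (0.84 ± 0.13, adjusted p = 0.0154). The groups overlapped for both genes, and pair 2 differed most in Gzmb. Of 19 helper lineage factors none was called and the median was -0.16. Foxp3, Tcf7 and Id2 were lower in the blocked fit, and Gata3 (-0.16 ± 0.27) did not pass in either.

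**Figure D3:**
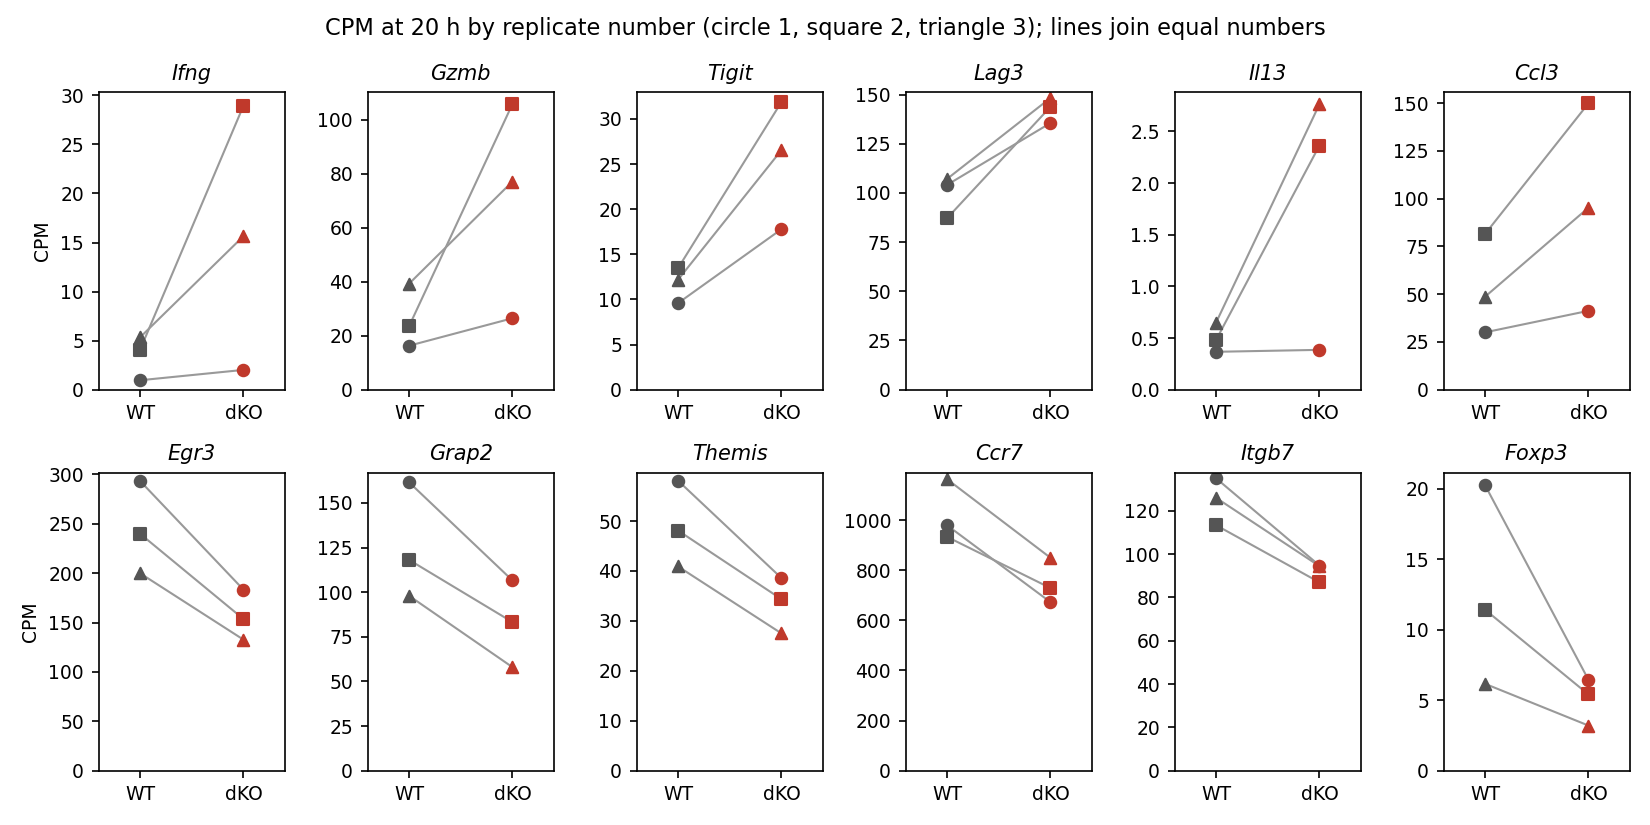
CPM in WT and Cd5-/-Cd6-/- (dKO) cells at 20 h of 12 genes that passed only in the blocked fit of 6 libraries, with lines joining libraries of equal replicate number and every axis starting at 0. In the upper row Ifng, Gzmb, Il13 and Ccl3 differ least in replicate 1, while in the lower row each line falls and the lines of Egr3, Grap2 and Themis run nearly parallel.

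Proliferation and growth genes gave no call. In the blocked fit at an unadjusted p under 0.05, 15 of 25 mitosis genes, 9 of 35 DNA replication genes and 11 of 25 MYC-driven growth genes were higher and none was lower, but none of these genes had an adjusted p under 0.05. The medians were 0.25, 0.06 and 0.08. The mitosis median was -0.00 in pair 1, 0.17 in pair 2 and 0.59 in pair 3, where WT replicate 3 had the lowest summed level of the list (1116 CPM, against 1511 to 1767 in the other 5 libraries). Ccnb1, the mitotic cyclin B1, was at 14.9, 12.0 and 11.2 CPM in WT and 15.4, 17.5 and 20.2 CPM in Cd5-/-Cd6-/- cells (unadjusted p = 0.0495).

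The glycolysis, cholesterol synthesis, stress, BCL2 family and interferon lists gave no call in the fit of 36 libraries, from which their medians are taken, and the single genes named are given from the fit blocked by replicate. Of 17 glycolysis genes, Pfkp, which encodes phosphofructokinase, and Slc16a3, a lactate exporter, were higher in the blocked fit. Pfkp was at 363, 406 and 385 CPM in WT and 476, 528 and 458 CPM in Cd5-/-Cd6-/- cells, without overlap (log2 fold change 0.35 ± 0.04, adjusted p = 0.00528), and the list's median was 0.07. Of 24 cholesterol synthesis genes none passed in either fit (median -0.05). Of 20 heat shock and stress genes, Atf3, Sesn2 and Hspa5 were higher in the blocked fit (median 0.08). Atf3, a stress-induced transcription factor, was at 3.50, 6.63 and 7.57 CPM in WT and 4.65, 20.6 and 18.2 CPM in Cd5-/-Cd6-/- cells (1.24 ± 0.17, adjusted p = 0.00692). Of 15 BCL2 family genes, Bcl2l1 (-0.36, adjusted p = 0.00549) and Bcl2 (-0.39, adjusted p = 0.0163), both inhibitors of apoptosis, were lower (median 0.00). Of 35 interferon-stimulated genes only Gbp3 passed, at 0.41 (adjusted p = 0.0484, median 0.16). The median of the interferon list was -0.13 in pair 1, 0.47 in pair 2 and 0.00 in pair 3.

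**Figure D4:**
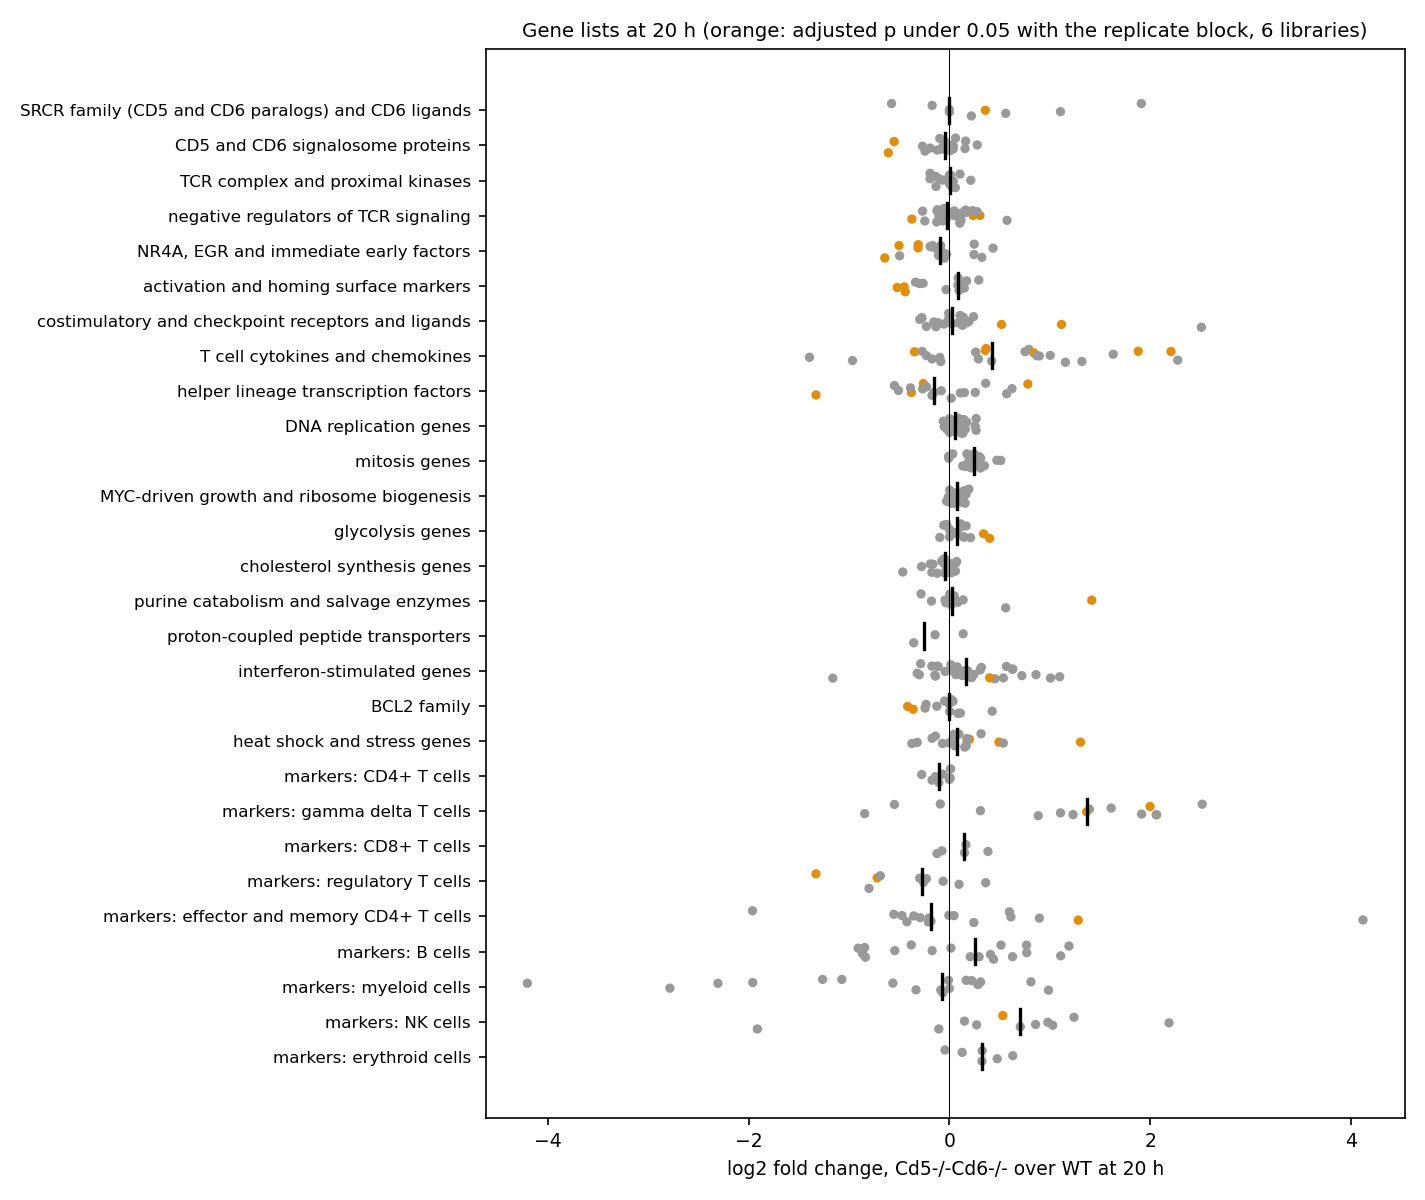
Log2 fold change of Cd5-/-Cd6-/- over WT at 20 h for each list member averaging 10 or more counts, 1 line per list, with a black bar at the median of those members and orange points for genes with an adjusted p under 0.05 in the blocked fit of 6 libraries. Cd5, Cd6 and Slc15a3 lie outside the axis and are left off, most medians lie near 0, and the bars of cytokines, gamma delta T cell and NK cell markers lie to the right.

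Marker genes were used to see which cells the libraries held. In bulk RNA, fewer cells of a type and less RNA per cell cannot be told apart. Cd3e and Cd4 were high in all 6 libraries, as labelled, and Cd4 was at 567 to 799 CPM in WT and 489.6 to 742 CPM in Cd5-/-Cd6-/- cells. Of 18 B cell, 18 myeloid, 6 CD8+ T cell and 6 erythroid markers none had an unadjusted p under 0.05 in the fit of 36 libraries. For 3 of the 18 B cell markers all Cd5-/-Cd6-/- values lay below all WT values. Cd74, the invariant chain of MHC class II, was at 24.0, 20.9 and 21.7 CPM in WT and 12.8, 17.4 and 15.5 CPM in Cd5-/-Cd6-/- cells, with an adjusted p of 0.0503 in the blocked fit. The others were Cd79b, at 1.58, 1.47 and 2.06 against 0.800, 0.987 and 0.920 CPM, and Bank1. Summed B cell markers ran from 339.9 to 422 CPM in WT and from 339.9 to 407 CPM in Cd5-/-Cd6-/-, of which Ighm took 311 to 386 and 310.4 to 378 CPM. Cd79a was at 0.113 to 0.342 CPM in WT and 0.207 to 0.239 CPM in Cd5-/-Cd6-/- cells, and Csf3r and Gzmk had no read in the 6 libraries. Summed myeloid markers were at 69.9 to 97.1 CPM in WT and 65.7 to 98.4 CPM in Cd5-/-Cd6-/- cells, and CD8+ T cell markers at 41.7 to 49.1 and 38.9 to 55.6 CPM. Of 11 NK cell markers 9 had a positive log2 fold change, with a median of 0.71, and 1 (Klrd1) was higher at an unadjusted p under 0.05. Nkg7, a granule protein of cytotoxic cells, was at 16.8, 27.5 and 30.5 CPM in WT and 22.3, 47.7 and 37.8 CPM in Cd5-/-Cd6-/- cells and was higher in the blocked fit (0.53 ± 0.09, adjusted p = 0.0295). The summed NK cell markers were at 484 to 579.9 CPM in WT and 483 to 549 CPM in Cd5-/-Cd6-/- cells, and Ncr1 was at 0 to 0.258 CPM in WT and 0 to 0.0598 CPM in Cd5-/-Cd6-/- cells. Of 17 effector and memory markers 10 had a negative log2 fold change, with a median of -0.18, and their sum was 125 to 141 CPM in WT and 106 to 130.4 CPM in Cd5-/-Cd6-/- cells. The part of these cells in the differences of Ifng, Gzmb and Tbx21 was not tested.

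Some gamma delta T cell genes were higher in Cd5-/-Cd6-/- cells. Of 21 markers, 6 were higher and 1 lower at an unadjusted p under 0.05, and none was called. The median of the fitted log2 fold changes was 1.24, while the medians within pairs, taken after adding 0.5 CPM to each value, were 0.16, 0.16 and 0.00. The summed level of the list was 19.3 to 22.5 CPM in WT and 23.2 to 31.4 CPM in Cd5-/-Cd6-/- cells. Trdc, the constant region of the delta chain, was at 4.85, 3.69 and 4.00 CPM in WT and 9.04, 14.3 and 9.09 CPM in Cd5-/-Cd6-/- cells, without overlap (log2 fold change 1.37 ± 0.31, adjusted p = 0.224, and 0.00528 in the blocked fit). Tcrg-C2 (2.06 ± 0.48) and Tcrg-C4 (2.00 ± 0.42), constant regions of the gamma chain, did not overlap either and passed in the blocked fit (adjusted p = 0.00485 and 0.0311). The gamma constant genes are near-identical copies, so the division of reads among them is uncertain. Whether these transcripts bear on Ifng or Gzmb was not tested.

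Of 10 regulatory T cell markers, 3 were lower at an unadjusted p under 0.05, none was called and 1 had groups that did not overlap. The median was -0.28, with summed levels of 472 to 541 CPM in WT and 375 to 439 CPM in Cd5-/-Cd6-/- cells. Foxp3, the lineage factor, was at 20.3, 11.4 and 6.17 CPM in WT and 6.46, 5.41 and 3.20 CPM in Cd5-/-Cd6-/- cells, and did not pass in the fit of 36 libraries (log2 fold change -1.33 ± 0.40, adjusted p = 1, and 0.00213 in the blocked fit). WT replicate 3 was below Cd5-/-Cd6-/- replicate 1, so the groups overlapped. Gpr83, a receptor of these cells, was at 77.2, 46.0 and 51.8 CPM in WT and 37.9, 29.5 and 39.1 CPM in Cd5-/-Cd6-/- cells, without overlap (-0.70 ± 0.10, adjusted p = 0.00903 in the blocked fit). Ikzf2, which encodes Helios, differed in the other direction by 0.36 ± 0.35 and did not pass.

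The Cd5-/-Cd6-/- line was also compared with WT before stimulation and at 4 h, to see whether the differences at 20 h were already present. No gene passed the test of a difference between the 20 h effect and the effect at 0 h or at 4 h by edgeR, with 447 and 761 genes at an unadjusted p under 0.05, nor by DESeq2 (0 genes for each). The values of each time are therefore given side by side. Xdh had a log2 fold change of 0.32 ± 0.23 at 0 h and 0.32 ± 0.22 at 4 h, at levels of 12.5 to 15.1 and 28.6 to 36.7 CPM in WT, against 1.42 ± 0.27 at 20 h, when it was low. Zfp467 differed by -0.23 ± 0.22 at 0 h and 0.15 ± 0.28 at 4 h. Slc15a3 was at 1.86 to 4.73 CPM in WT and 1.74 to 3.68 CPM in Cd5-/-Cd6-/- cells at 0 h, where it differed by -0.23 ± 0.48, and by 0.24 ± 0.46 at 4 h. Tmem132a, near the detection limit at 0 h and 4 h in both genotypes, differed by 0.15 ± 0.59 and -0.15 ± 0.58.

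The gamma delta genes differed at all 3 times. Trdc had a log2 fold change of 1.45 ± 0.28 at 0 h (adjusted p = 0.0320), 1.62 ± 0.28 at 4 h (adjusted p = 0.0044) and 1.37 ± 0.31 at 20 h, while its WT level went from 23.4 to 26.2 CPM at 0 h down to 3.69 to 4.85 CPM at 20 h. Foxp3 differed by 0.12 ± 0.37 at 0 h, 0.53 ± 0.38 at 4 h and -1.33 ± 0.40 at 20 h, and the difference between the 20 h and 4 h effects was -1.85 ± 0.55 (adjusted p = 1). Ccr7 differed by 0.57 ± 0.15 at 4 h and -0.45 ± 0.15 at 20 h, and the difference of these effects was -1.02 ± 0.21 (adjusted p = 0.74). Tigit was higher at each time, by 0.89 ± 0.45, 1.31 ± 0.38 and 1.12 ± 0.38.

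The single knockouts at 20 h were used to ask how the loss of both genes differs from the loss of either. Compared directly with Cd5-/- cells, Cd5-/-Cd6-/- cells gave 8 calls (0.0248%), 2 higher and 6 lower. Compared with Cd6-/- cells they gave 10 calls (0.031%), 2 higher and 8 lower. Tmem132a fell against both, by 4.84 ± 0.54 and 4.78 ± 0.55 on the log2 scale (adjusted p = 2.7e-07 and 6.3e-07), and Slc15a3 fell against Cd6-/- cells by 5.60 ± 1.01 (adjusted p = 0.0118). Tmem132a was at 1.30 to 1.81 CPM in Cd5-/- and 1.02 to 1.85 CPM in Cd6-/- cells, against 0.700 to 1.07 CPM in WT. The calls against Cd5-/- cells included Gm8116, Carnmt1, 1110059E24Rik and Wdfy1, and Gm8116 and Carnmt1 were also called between Cd5-/- and WT cells (log2 fold change 5.46 and -1.83). By the study's methods the Cd5-/- mice are an earlier line backcrossed to C57BL/6. The Cd6-/- and Cd5-/-Cd6-/- lines were made by CRISPR/Cas9 in C57BL/6JRj embryos. In these calls the origin of the line and the genotype cannot be told apart. The calls against Cd6-/- cells included Tcrg-C4 (2.23 ± 0.44, adjusted p = 0.0417), Adh7, Spsb1, Gpr34 and the ribosomal RNA gene n-R5-8s1. With the replicate block Tcrg-C4 and Gpr34 no longer passed (adjusted p = 0.0758 for each). Ribosomal and 7SK RNA took 1.72% of the reads of Cd6-/- replicate 3. On the log2 scale 4 genes (0.0124%) differed from the sum of the single-knockout effects, namely A430093F15Rik, Cd6, Tmem132a and Cd5. For A430093F15Rik, Cd6 and Cd5 the alleles themselves set this outcome, so it does not show how the losses of CD5 and CD6 combine.

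The values of some other genes in the single knockouts are given side by side, each compared with the same WT samples. Xdh had a log2 fold change of 0.74 ± 0.28 without CD5, 1.22 ± 0.27 without CD6 and 1.42 ± 0.27 without both. Zfp467 had -1.01 ± 0.27, -0.69 ± 0.26 and -1.41 ± 0.27 in that order. Neither gene passed against either single knockout, and the difference of Xdh from Cd6-/- cells was 0.20 ± 0.25. Egr3 had -0.49 ± 0.17 in Cd5-/- and 0.02 ± 0.17 in Cd6-/- cells, Foxp3 -1.34 ± 0.40 and -0.20 ± 0.39, and Trdc 1.10 ± 0.31 and -0.03 ± 0.32, with none of the 3 passing the adjusted test in either. Ifng had 1.55 ± 0.77 in Cd5-/- and 1.71 ± 0.78 in Cd6-/- cells. For further genes, mean CPM at 20 h is given for WT, Cd5-/-, Cd6-/- and Cd5-/-Cd6-/- cells in that order. Tigit was at 11.7, 21.5, 16.8 and 25.4, and Gzmb at 26.3, 54.8, 47.4 and 69.7. Atf3 was at 5.90, 10.9, 15.0 and 14.5, and Tmem35a at 2.79, 6.43, 6.00 and 8.95. Grap2 was at 126, 86.8, 134 and 82.6, and Ccr7 at 1025, 784, 1004 and 750. None of these genes was called between a single knockout and WT cells.

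**Figure D5:**
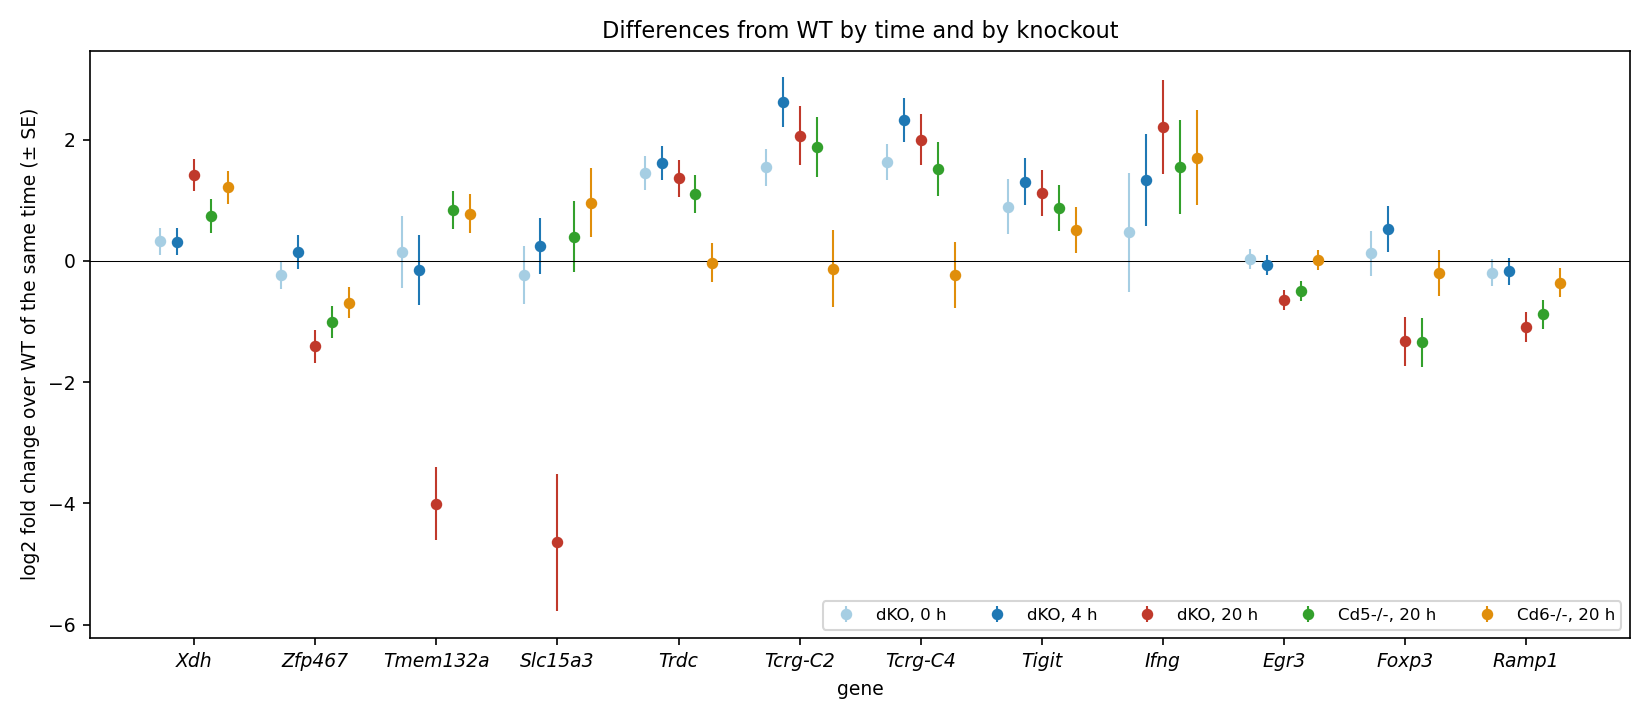
Log2 fold change over WT of the same time (± SE) for 12 genes in Cd5-/-Cd6-/- (dKO) cells at 0, 4 and 20 h and in Cd5-/- and Cd6-/- cells at 20 h. Tmem132a and Slc15a3 are at -4.00 and -4.64 in Cd5-/-Cd6-/- cells at 20 h and above -1 in the other groups drawn, Trdc, Tcrg-C2 and Tcrg-C4 are above 1 in Cd5-/-Cd6-/- cells at each time and in Cd5-/- cells and near 0 in Cd6-/- cells, and Xdh is above 1 at 20 h in Cd5-/-Cd6-/- and Cd6-/- cells.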

How the data were processed

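The authors deposited a table of raw read counts per gene for the 36 libraries, made per the labels and methods with STAR on GRCm38 (mm10) and featureCounts, after bcl2fastq 2.17.1.14. Versions given with the names are from the submitters' processing notes where stated, and the strand setting of the counting is not given in the sources used here. No replicate was pooled. Genes with at least 1 read in the 36 libraries (32290 of 55385) were tested with edgeR 4.0.16 (limma 3.58.1, R 4.3.3), using TMM factors, glmQLFit and glmQLFTest with 1 coefficient per genotype and time and Benjamini-Hochberg adjustment over all genes. CPM values are scaled by the TMM library sizes. In simulated counts (30539 and 22620 genes) the 36-library fit called 84% of genes changed 2.5-fold and 8 unchanged genes, and the blocked 6-library fit 98% and 0. By adjusted p alone, 1.5-fold changes passed in 26% and 92%. The changed genes were drawn from well-counted genes only, so these rates do not cover genes with few reads, such as Tmem132a and Slc15a3. The blocked simulation gave both groups the same replicate effects, which the data need not share.

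Replicate numbers come from the sample titles. Deviations from the group mean correlated at 0.505, 0.192 and 0.555 between WT and Cd5-/-Cd6-/- libraries of the same number and at -0.488 to 0.0429 otherwise (13738 genes), so the numbers were taken to pair the samples. Within a group the deviations of each gene cancel out, so positive values for equal numbers bring negative ones elsewhere. The contrast is thus partly built in, and the weakest match of equal numbers was 0.192. Pairs of libraries within a group differed by more than sampling noise (chi-square per degree of freedom 26.3 to 126).

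The 6 samples and the gene lists were chosen with earlier results of these data known. Genes named are the targeted genes, called genes, genes called with the block, neighbours within 1 Mb, and in each list the members with the smallest p or highest level. Others, named for the blocked 6-library fit or as background, were chosen after their values were seen. Alternatives were other scalings, filters, the block, leaving out replicates, fewer libraries and DESeq2 1.42.0. Guide sites were taken from the study's methods and supplements and placed on the GRCm38 annotation. Results for some genes are not reported here.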

Additional observations from a re-analysis of the deposited data

Results flagged for a closer look

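Genes whose level in Cd5-/-Cd6-/- cells at 20 h differed from the sum of the effects of Cd5-/- and Cd6-/- on the log2 scale, by edgeR's quasi-likelihood test (Benjamini-Hochberg adjusted), numbered 4, all lower than the sum (348 genes at an unadjusted p under 0.05, 0.0124% of genes called). A430093F15Rik differed by -12.79 ± 0.52 (adjusted p = 4.0e-23), Cd6 by -9.51 ± 0.58 (adjusted p = 8.1e-15), Tmem132a by -5.62 ± 0.65 (adjusted p = 1.1e-06) and Cd5 by -4.63 ± 0.73 (adjusted p = 0.00148). A430093F15Rik lies between the guide cut sites and was at 79.97 to 126 CPM in the single knockouts. Cd6 kept 257 to 315 CPM in Cd6-/- cells, whose own deletion covers part of exon 1, and Cd5 kept 11.4 to 13.9 CPM in Cd5-/- cells. At A430093F15Rik, Cd6 and Cd5 the deletion of the Cd5-/-Cd6-/- line is not the sum of the single-knockout alleles. The outcome for these genes was thus set by the alleles and does not show how the losses of CD5 and CD6 combine. Tmem132a lies outside the cuts, and Slc15a3 beside it differed by -6.01 ± 1.23 without passing (adjusted p = 0.0960).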

How the results depend on the processing

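No value reversed under any alternative. The count of genes called between Cd5-/-Cd6-/- and WT cells at 20 h, 6 as reported, was 4 to 6 with other scalings, a stricter filter on low counts, 20 h libraries alone, or without the 2 unstimulated libraries that went against their labels, and 9 with the replicate block. It was 14 with the legacy form of edgeR's test, 13 with DESeq2, 3 with the 6 libraries alone, 41 with these and the replicate block, 276 by adjusted p alone in that blocked fit, and 23 with the legacy form and the block. Leaving out 1 numbered pair gave 3 to 5 calls (3 to 24 in the blocked fit of 6 libraries), and leaving out 1 library gave 4 to 6. The pairing of replicates thus moved the count most in the fit of 6 libraries, which has 2 residual degrees of freedom per gene. The legacy and block combination, the left-out pairs of the blocked fit and its adjusted p alone were added after the data were seen. Against Cd6-/- cells the 10 calls became 6 without TMM factors, 5 with the stricter filter, 16 with DESeq2 and 4 to 6 without 1 replicate number. The causes were not tested. With 3 samples a group and few reads, Xdh, Zfp467, Tmem132a and Slc15a3 are measured with low precision, and 1.5-fold changes were mostly not detectable by adjusted p in the fit of 36 libraries.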

Other observations

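Several genes with larger fold changes in the blocked fit of 6 libraries belong to none of the lists, and they were chosen after their values were seen. Ly6a, which encodes the surface antigen Sca-1 of activated T cells, was at 74.2, 150.1 and 318 CPM in WT and 131, 478 and 450.3 CPM in Cd5-/-Cd6-/- cells, a log2 fold change of 1.00 ± 0.17 (edgeR, adjusted p = 0.0210). Serpina3g (1.49 ± 0.22) and Serpina3f (1.57 ± 0.17), serine protease inhibitors of a multigene family whose reads may be shared, and Plac8 (1.48 ± 0.20) were higher too. Tbkbp1, an adaptor of the kinase TBK1 that lies beside Tbx21, was at 5.92, 11.2 and 16.0 CPM in WT and 11.1, 31.4 and 27.8 CPM in Cd5-/-Cd6-/- cells (1.08 ± 0.13). At 20 h Plac8 averaged 2.98 CPM in WT, 4.55 CPM in Cd5-/-, 6.13 CPM in Cd6-/- and 8.25 CPM in Cd5-/-Cd6-/- cells. Serpina3g averaged 1.44, 2.70, 3.07 and 4.17 CPM in the same order.

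Lower in the same fit were Socs2, a suppressor of cytokine signaling, at 17.5, 10.3 and 10.4 CPM in WT and 7.05, 5.41 and 4.90 CPM in Cd5-/-Cd6-/- cells (-1.13 ± 0.11, adjusted p = 0.00205), and Rragd, a GTPase that brings mTORC1 to lysosomes, at 17.8, 11.7 and 9.63 CPM against 8.36, 5.20 and 4.34 CPM (-1.11 ± 0.10, adjusted p = 0.00102). Amigo2, an adhesion protein, was at 19.8, 15.5 and 17.1 CPM against 9.36, 7.12 and 8.65 CPM (-1.05 ± 0.09, adjusted p = 0.000804). The WT and Cd5-/-Cd6-/- values did not overlap for any of these 3 genes. Nsg2, an endosomal protein at 76.4, 59.9 and 61.9 CPM in WT and 44.5, 31.3 and 38.5 CPM in Cd5-/-Cd6-/-, passed by adjusted p with the block in the fit of 36 libraries as well (0.0469), with a fold change under 2. These genes were also lower than WT in Cd5-/- cells at 20 h. Socs2 averaged 6.69 CPM in Cd5-/- and 12.1 CPM in Cd6-/- cells, against 12.8 CPM in WT and 5.79 CPM in Cd5-/-Cd6-/-. In the same order Rragd averaged 6.12, 11.4, 13.0 and 5.97 CPM and Amigo2 11.7, 14.2, 17.5 and 8.38 CPM. Nsg2 averaged 44.7, 54.5, 66.1 and 38.1 CPM.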
